A study of Mus musculus with 20 samples.

Results

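The glucocorticoid receptor and a set of genes known to be controlled by it or to control the hormone that reaches it were followed in colonic intestinal epithelial cells (IECs) of mice under social stress. The genes were chosen by name, as 9 genes: the receptors *Nr3c1* and *Nr3c2*, the hormone-inactivating enzyme *Hsd11b2*, and the glucocorticoid-induced genes *Fkbp5*, *Tsc22d3*, *Sgk1*, *Klf9*, *Errfi1* and *Ddit4*. A row was found for 8 of the 9 among the 15876 genes of the count table, and *Fkbp5* was not analysed here. The comparison was between unhandled home cage mice (Con, n = 10 libraries) and mice given the social disruption stressor (Str, n = 10 libraries), all adult male C57BL/6NCrl mice of 6 to 8 weeks with a conventional microbiota. For Str, an aggressive retired breeder of the same strain was placed with 3 resident mice for 2 h per day on 6 consecutive days, and tissue was taken 12 to 15 h after the last session, so the values describe IECs hours after the stressor and not during it. IECs were taken with magnetic beads as CD45-negative, EpCAM-positive cells.

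Corticosterone, the main glucocorticoid of mice, crosses the cell membrane and binds the glucocorticoid receptor, which a complex of HSP90 and co-chaperones holds ready in the cytoplasm. The bound receptor moves to the nucleus and activates genes through glucocorticoid response elements, pairs of a short half-site placed head to head around a spacer, and it recruits coactivators that open the chromatin. In colonic epithelium the related mineralocorticoid receptor drives sodium absorption under aldosterone, and an inactivating enzyme, 11-beta-hydroxysteroid dehydrogenase, keeps glucocorticoids away from it.

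The promoters of *Sgk1* and *Tsc22d3*, the genes that fell in Str, are shown. They were also the only ones with a half-site among the 6 genes whose promoter windows could be searched. RefSeq windows of GRCm38.p6 that run from 250 bases before to 50 bases after an annotated start were found for 6 of the 8 genes, as 14 windows. Of these, *Sgk1* had 6 and *Tsc22d3* had 3, which reflect alternative starts. The 250 bases before the start are printed 5′ to 3′ for 1 window of each gene, at chr10:21993640-21993889 (plus strand) for *Sgk1* and at chrX:140600523-140600772 (minus strand) for *Tsc22d3*, with half-sites, and the spacer between facing half-sites, in capitals.
Sgk1: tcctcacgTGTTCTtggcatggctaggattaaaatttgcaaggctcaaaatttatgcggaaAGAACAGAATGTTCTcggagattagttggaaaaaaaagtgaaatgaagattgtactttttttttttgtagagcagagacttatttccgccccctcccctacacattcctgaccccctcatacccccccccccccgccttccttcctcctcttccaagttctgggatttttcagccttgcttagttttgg
Tsc22d3: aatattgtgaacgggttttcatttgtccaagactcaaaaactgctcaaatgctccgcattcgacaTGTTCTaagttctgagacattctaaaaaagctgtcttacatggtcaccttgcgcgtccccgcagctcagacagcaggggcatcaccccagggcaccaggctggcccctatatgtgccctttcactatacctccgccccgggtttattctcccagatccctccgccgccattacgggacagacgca
The *Sgk1* window held the full palindrome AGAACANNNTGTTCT, whose first base lay at -189 from the start. This palindrome was in 3 of the 32851 mouse windows searched (0.00913%), those of *Sgk1*, *Acnat2* and *Gm35041*. The looser form GNACANNNTGTNC, which the full palindrome contains, was found in 0.475% of all windows and in 1 of the 14 windows of the set, the same *Sgk1* window. The half-site TGTTCT, searched on both strands and also contained in the palindrome, was in 19.0% of all windows and in 4 of the 14, of which 3 belonged to *Sgk1* and 1 to *Tsc22d3*, where it began at -185. By gene, the half-site was in 2 of the 6, beside 21.3% of all genes with a window. These 2 genes also had the most windows of the set. All of these are matches of letters only, and counts per gene do not show which start was used.

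Counts assigned to genes summed to 20034127 to 26141352 per Con library and 20390091 to 24508215 per Str library. Levels are given as CPM, the count of a gene set against its library's normalised total and scaled to a common size. Epithelial markers were abundant in every library, with a summed level over 10 of 11 listed genes of 14525 to 17413 CPM in Con and 13912 to 18036 CPM in Str. Leukocyte markers, of which 5 of 17 were measured, summed to 22.9 to 45.1 CPM in Con and 37.2 to 131 CPM in Str. Most of this sum was *Ly6g*, with means of 28.9 and 75.9 CPM in the respective groups, while *Ptprc*, which encodes CD45, had means of 1.16 and 0.905 CPM. Among the Con libraries, CV3, CV4, CL1 and CV6 stood apart by liver transcripts, with the albumin gene *Alb* at 69.3 to 79.9 CPM against 1.64 to 3.19 CPM in the other 16 libraries. Of 14 listed hepatocyte genes 6 were measured, and *Alb* alone is given by library here. For named genes that lose their call without these 4 libraries, the adjusted p without them is given too. Library names carry a letter, V or L, 5 of each in each group, whose meaning is not given in the sources used here. Since CV3, CV4 and CV6 carry V, fits without the 4 libraries hold fewer V than L libraries in Con.

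Of the 8 genes, 2 were lower in Str and none was higher at an adjusted p under 0.05 in edgeR's quasi-likelihood test with Benjamini-Hochberg adjustment over all genes. At an unadjusted p under 0.05, 2 were higher (*Errfi1* and *Ddit4*), and *Nr3c1* was lower beside the 2 called genes. *Nr3c1*, at an unadjusted p of 0.0432 in edgeR, ranked only 4581 by p among all genes. After adjustment the number higher was 0 in DESeq2 and 1 in limma-voom (*Errfi1*). *Tsc22d3* and *Sgk1*, which encode an anti-inflammatory leucine zipper protein and a kinase of sodium transport, fell by 0.34 and 0.38 on the log2 scale, while both receptors, *Hsd11b2*, *Klf9*, *Errfi1* and *Ddit4* did not pass. Over all genes the same test called 16.7%, with 8.94% higher and 7.72% lower in Str. The median log2 fold change was -0.03 over the 8 genes and -0.004 over all genes, and the median of its absolute size was 0.160 over the 8 genes and 0.114 over all genes. Glucocorticoids are known to induce both of the genes that fell, and also *Klf9*, *Errfi1* and *Ddit4*, which were not called.

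**Figure D1:**
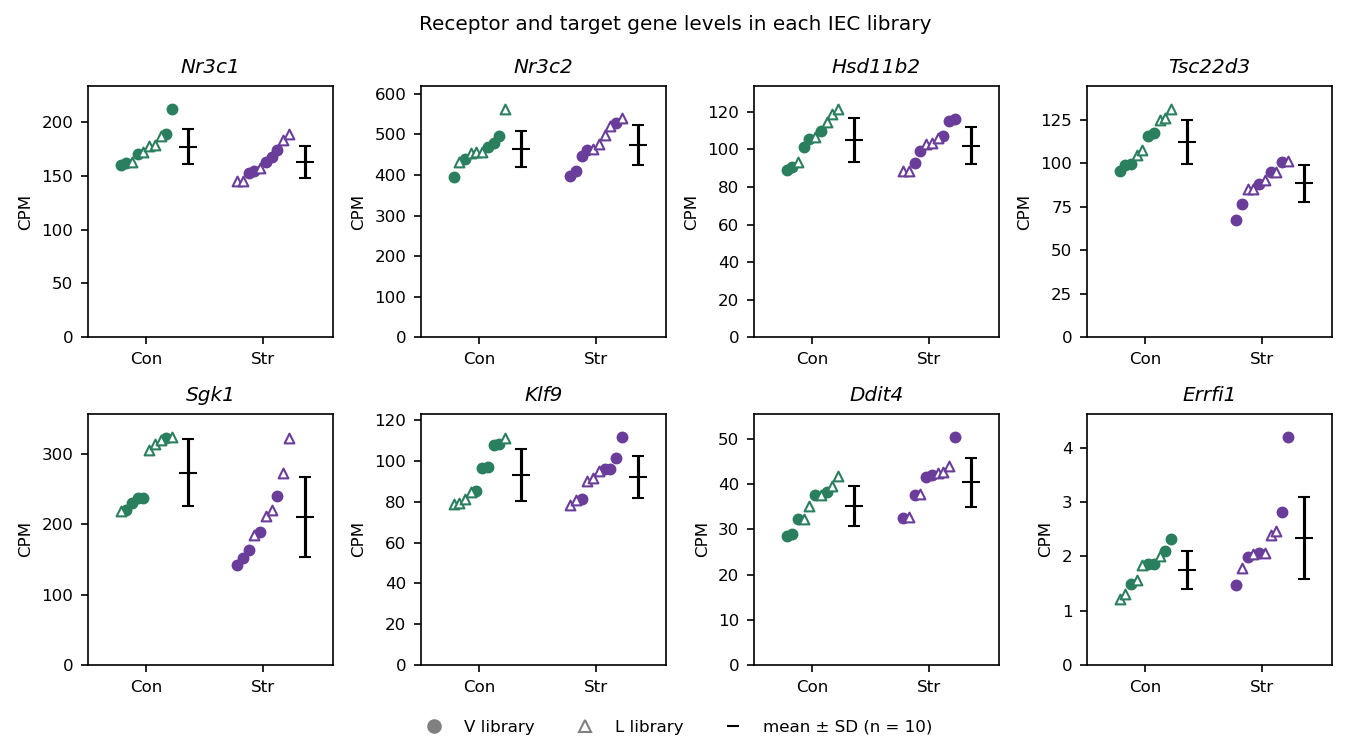
Level of each gene (CPM, axis from 0) in every Con and Str library, sorted within a group, with circles for V libraries, triangles for L libraries and the mean ± SD beside them. Most Str values of *Tsc22d3* lie below every Con value, *Sgk1* in Con splits into a lower and a higher set of 5 libraries, and 1 Str library lies far above the rest for *Errfi1*.

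Set against the length of each gene's exons, the receptors and their targets stood at very different levels. In Con, *Nr3c2* had 71.7 ± 6.80 CPM per kilobase of exon (SD, n = 10), *Hsd11b2* 57.1 ± 6.29 and *Sgk1* 55.8 ± 9.71, the 3 highest of the set. *Tsc22d3* followed at 25.8 ± 2.90 CPM per kilobase, *Nr3c1* at 23.1 ± 2.08, *Ddit4* at 20.1 ± 2.57 and *Klf9* at 19.3 ± 2.66, and *Errfi1* was by far the lowest at 0.489 ± 0.0987. Neighbours in this order overlapped in their values between libraries, apart from *Sgk1* and *Tsc22d3* and from *Klf9* and *Errfi1*. Between the receptors, *Nr3c2* stood above *Nr3c1* in Str as well, at 73.3 against 21.3 CPM per kilobase of exon. In Str the order from *Ddit4* to *Tsc22d3* was turned, with *Ddit4* at 23.0 ± 3.09 and *Tsc22d3* at 20.4 ± 2.45 CPM per kilobase, again with overlapping values. Exon lengths were taken from GENCODE M21 on GRCm38, whereas reads had been counted on another gene model, so these levels are approximate.

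*Nr3c1*, on chromosome 18, encodes the glucocorticoid receptor. It was at 160 CPM in the lowest, 175 CPM in the median and 213 CPM in the highest Con library, and at 145, 160 and 189 CPM in Str. The groups overlapped, although 5 of 10 Str libraries were under the lowest value of Con. In edgeR the log2 fold change was -0.12 (SE 0.056, 95% interval -0.24 to -0.0040), with an adjusted p of 0.150. This difference did not pass at the adjusted threshold in any alternative, with adjusted p from 0.063 to 0.561, and its direction was downward in all of them.

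*Nr3c2* (chr8:76899442-77245012, plus strand) encodes the mineralocorticoid receptor, which binds corticosterone as well as aldosterone. Its Con libraries ranged from 396 CPM over a median of 457 CPM to 563 CPM, and its Str libraries from 398 CPM over 469.6 CPM to 541 CPM. All Str libraries lay within the range of Con. A log2 fold change of 0.03 (SE 0.062) had a 95% interval of -0.10 to 0.16, and the adjusted p was 0.787 in edgeR.

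*Hsd11b2* (chr8:105518755-105523988, plus strand) encodes the enzyme that turns corticosterone into its inactive 11-keto form. Con libraries lay between 89.0 and 122 CPM with a median of 106 CPM, and Str libraries between 88.5 and 116 CPM with a median of 103 CPM. The ranges nearly coincided. Between the groups the log2 fold change was -0.04 (SE 0.064, 95% interval -0.18 to 0.09) and the adjusted p was 0.694 in edgeR. Among the V libraries alone the value was 0.09 and among the L libraries alone -0.18. The difference between these, 0.28 (SE 0.12), had an unadjusted p of 0.0264 and an adjusted p of 0.860 in the edgeR test of the interaction, so it did not pass. *Hsd11b1*, the enzyme that works in the opposite direction, had means of 1.19 CPM in Con and 0.932 CPM in Str (log2 fold change -0.34, adjusted p = 0.406 in edgeR).

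*Tsc22d3* (chrX:140539528-140600659, minus strand) encodes GILZ, a leucine zipper protein that is known in many cell types as a direct and anti-inflammatory target of the glucocorticoid receptor. In Con it was at 95.6 CPM in the lowest, 112 CPM in the median and 131 CPM in the highest library. In Str the values were 67.2, 89.0 and 101 CPM. Here 8 of 10 Str libraries lay below every Con library, and the lowest, SV6, also had the lowest *Sgk1* value. From a mean of 112 ± 12.6 CPM in Con to 88.3 ± 10.6 CPM in Str (SD, n = 10 each), *Tsc22d3* fell by 21.3%. The log2 fold change was -0.34 (SE 0.071, 95% interval -0.49 to -0.20) with an adjusted p of 0.00202 in edgeR, which ranked it at 548 by p among all genes. It was called lower each time 1 library was left out, with adjusted p from 0.00096 to 0.0052, and also without the 4 Con libraries with liver transcripts. Of 17 listed leukocyte markers 5 were measured, of which *Ly6g* and *Cd68* were called higher in Str and none was called lower. *Ptprc* and *Cd74* had lower means in Str and were not called (log2 fold change -0.10, adjusted p = 0.844 in edgeR for *Cd74*). The part of leukocytes in the result was not tested. With 5 libraries a group *Tsc22d3* had a log2 fold change of -0.31 (adjusted p = 0.0724 in edgeR) in V and -0.38 (adjusted p = 0.0575) in L. Whether fewer cells of a type that holds this mRNA were collected or each cell held less of it cannot be told apart in such bulk libraries.

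*Sgk1* (chr10:21882184-21999903, plus strand) encodes serum and glucocorticoid regulated kinase 1, which raises epithelial sodium channel activity and is induced through both receptors. In Con it was at 219 CPM in the lowest, 272 CPM in the median and 325 CPM in the highest library. These libraries lay in separate clusters, with 5 between 219 and 238 CPM and 5 between 306 and 325 CPM. The lower cluster held CV2, CV3, CV4, CV6 and CL6, and the higher held CV1, CL1, CL2, CL3 and CL4. In Str the lowest, median and highest values were 143, 200.4 and 323 CPM. The groups overlapped at the top, where SL4 at 323 CPM and SL5 at 274 CPM stood above the other Str libraries, while 6 of 10 Str libraries lay below every Con library. Means were 273.5 ± 47.6 CPM for Con and 210.3 ± 56.6 CPM for Str (SD, n = 10 each), so that *Sgk1* fell by 23.1%. The log2 fold change was -0.38 (SE 0.13, 95% interval -0.65 to -0.11) with an adjusted p of 0.0476 in edgeR. This call was close to the threshold. It was made in 8 of the 20 fits that each left out 1 library (adjusted p from 0.0069 to 0.0861) and was lost without any one of CV1, CL1, CL2, CL3, CL4, SV1, SV4, SV5, SV6, SL1, SL2 or SL6. It was lost too with RLE factors, another scaling offered by edgeR (adjusted p = 0.0515), and without the 4 Con libraries with liver transcripts, at a log2 fold change of -0.45 and an adjusted p of 0.0707, and the direction was downward in each of these fits. The fit without the 4 Con libraries left out CV3, CV4 and CV6, V libraries of the lower cluster, so V and L were unequal in its Con group. *Sgk1* was lower in V than in L libraries across both groups by 0.35 on the log2 scale (unadjusted p = 0.0042, adjusted p = 0.064 in edgeR). Within V its log2 fold change was -0.49 (adjusted p = 0.036 in edgeR), and within L it was -0.29 (adjusted p = 0.342).

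*Ddit4* (chr10:59949669-59951834, minus strand) encodes REDD1, a glucocorticoid- and hypoxia-induced inhibitor of mTORC1, the kinase complex that drives protein synthesis. Con libraries ranged from 28.6 over a median of 36.4 to 41.8 CPM, and Str libraries from 32.5 over 41.9 to 50.6 CPM. In Str 5 of 10 libraries lay above every Con library. The log2 fold change was 0.20 (SE 0.080, 95% interval 0.03 to 0.37) and the adjusted p 0.0897 in edgeR, so *Ddit4* was not called, and it passed in 2 of the 20 fits that left out 1 library, those without SV4 (adjusted p = 0.0480) and without SL5 (adjusted p = 0.0407). *Klf9* (chr19:23141226-23168134, plus strand), a transcription factor gene that the receptor induces directly in several tissues, ranged from 79.1 over 90.9 to 111 CPM in Con and from 78.5 over 93.4 to 112 CPM in Str. These ranges coincided, and the log2 fold change was -0.01 (SE 0.075, 95% interval -0.17 to 0.14, adjusted p = 0.936 in edgeR).

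*Errfi1* (chr4:150853919-150868892, plus strand) encodes MIG6, a feedback inhibitor of the EGF receptor. It was a rare transcript here, with 30 to 95 counts per library. Its Con libraries ranged from 1.21 over a median of 1.84 to 2.32 CPM and its Str libraries from 1.47 over 2.06 to 4.20 CPM. In Str 4 of 10 libraries lay above every Con library, and SV2, at 4.20 CPM, was far above the next library at 2.82 CPM. The log2 fold change was 0.41 (SE 0.16, 95% interval 0.08 to 0.74) and the adjusted p 0.0836 in edgeR. Without SV2 the log2 fold change was 0.27, and without SV6, the lowest Str library, the gene passed at an adjusted p of 0.0466 in edgeR. It also passed in limma-voom with quality weights (log2 fold change 0.47, adjusted p = 0.0465).

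**Figure D2:**
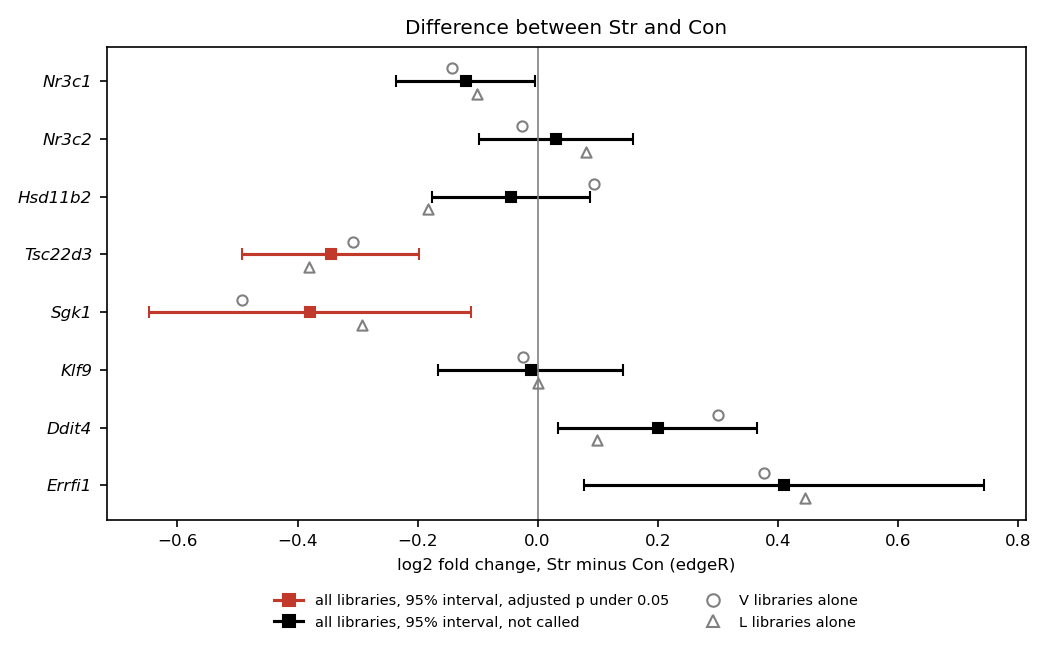
Log2 fold change of Str against Con from edgeR for each gene over all libraries (squares, with 95% intervals, red where the adjusted p is under 0.05) and over the V (circles) or L (triangles) libraries alone. *Tsc22d3* and *Sgk1* lie below 0 in both sets, *Errfi1* and *Ddit4* above 0 in both, and *Hsd11b2*, *Nr3c2* and *Klf9* on opposite sides, the last close to 0 in each.

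Whether the stress difference depended on the letter of the library was tested across all genes as an interaction in edgeR. No gene passed at an adjusted p under 0.05 by this test, with 918 genes at an unadjusted p under 0.05, and of the 8 genes *Hsd11b2* alone had an unadjusted p under 0.05. None of the 8 had one, and again no gene passed, when the 4 Con libraries with liver transcripts were left out, with 815 genes then below 0.05 before adjustment. That fit could show little, since CV1 and CV2 were its only Con V libraries. The interval of the interaction was -0.20 to 0.36 on the log2 scale for *Tsc22d3* and -0.65 to 0.26 for *Sgk1*, and both intervals hold values as large as the stress difference of the gene, with 5 libraries a group in each set. SV and SL libraries both had lower mean *Tsc22d3*, at 85.4 ± 13.6 and 91.3 ± 6.80 CPM, than CV and CL libraries, at 105 ± 10.1 and 119 ± 11.9 CPM (SD, n = 5 each).

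Outside the set, some genes of the receptor machinery rose by small amounts. Of 27 chaperones, co-chaperones and coregulators of the receptors, all measured, 7 rose and none fell, with a median log2 fold change of 0.10 over the list beside -0.004 over all genes. The share called, 25.9%, stands beside 16.7% of all genes. The coactivator genes *Ep300*, *Med1* and *Ncoa1* rose by 0.16, 0.16 and 0.18 on the log2 scale (adjusted p = 0.0061, 0.0053 and 0.0096 in edgeR). *Ep300*, which encodes a histone acetyltransferase, went from 114 ± 7.58 to 128 ± 5.90 CPM (SD, n = 10 each), with 9 of 10 Str libraries above every Con library. *Bag1*, a co-chaperone gene, rose by 0.20 from 200 ± 14.4 to 229 ± 17.0 CPM (adjusted p = 0.0069). The HSP90 genes themselves did not pass, with log2 fold changes of 0.10 for *Hsp90aa1* and 0.09 for *Hsp90ab1* (adjusted p = 0.503 and 0.376 in edgeR). Without the 4 Con libraries with liver transcripts 2 of the 27 rose, *Ep300* and *Bag1*, and none fell, while *Med1* and *Ncoa1* had adjusted p of 0.052 and 0.051 in edgeR, and with library sizes alone as the scaling, which moves all log2 fold changes by about -0.04, 4 rose and none fell.

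Of 27 genes of steroid synthesis, inactivation and export, 15 were measured, of which 5 fell and 1 rose (40.0% called, beside 16.7% of all genes). The smallest p was that of *Hsd3b2*, which encodes a 3-beta-hydroxysteroid dehydrogenase, from 54.3 ± 5.79 to 37.4 ± 8.98 CPM (log2 fold change -0.54, SE 0.11, adjusted p = 0.00133 in edgeR), with 8 of 10 Str libraries below every Con library. *Abcb1a*, which encodes P-glycoprotein, an exporter of many drugs and of glucocorticoids, fell from 1974 ± 217 to 1449 ± 361 CPM (log2 fold change -0.45, SE 0.11, adjusted p = 0.0081). *Hsd17b2*, whose enzyme oxidises sex steroids, and *Hsd17b4*, whose enzyme acts mainly on fatty acids in peroxisomes, fell by 0.25 and 0.31 on the log2 scale (adjusted p = 0.0055 and 0.0205 in edgeR). The fifth was *Nr5a2*, which encodes LRH-1, known to drive glucocorticoid synthesis in mouse intestine, and it fell by 0.19 (adjusted p = 0.0268), from 128 to 112 CPM. *Srd5a2*, a steroid reductase gene, rose from 3.25 to 4.60 CPM (log2 fold change 0.50, adjusted p = 0.0233). Without the 4 Con libraries 4 fell and none rose, and *Nr5a2* and *Srd5a2* no longer passed (adjusted p = 0.158 and 0.10 in edgeR). *Nr5a2*, *Srd5a2* and other genes named beyond the 4 smallest p of a list were chosen after their values were seen.

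Other genes that glucocorticoids induce in various tissues did not move in 1 direction. Of 47 listed, 45 were measured, of which 10 rose and 7 fell (37.8% called, beside 16.7% of all genes), and the list median was -0.02 on the log2 scale. *Tat*, which encodes tyrosine aminotransferase, a classical target of the receptor in liver, rose from 35.6 ± 5.35 to 86.2 ± 24.6 CPM (log2 fold change 1.28, SE 0.14, adjusted p = 1.05e-05 in edgeR), with 9 of 10 Str libraries above every Con library. *Map3k6*, a stress kinase gene, rose from 12.2 ± 1.32 to 22.5 ± 6.14 CPM (log2 fold change 0.88, SE 0.13, adjusted p = 0.00010). The genes *Bcl6*, for a transcriptional repressor, and *Ampd3*, for an AMP deaminase, rose by 0.75 and 0.33 on the log2 scale (adjusted p = 0.00054 and 0.00030). For *Ampd3*, all 10 Str libraries, at 46.4 to 59.5 CPM, lay above all 10 Con libraries, at 33.8 to 45.5 CPM. Among those that fell, *Pck1*, the gluconeogenic gene, went from 199 to 126 CPM (log2 fold change -0.66, adjusted p = 0.0017). *Mertk*, for a receptor that recognises dying cells, went from 117 to 89.6 CPM (log2 fold change -0.39, adjusted p = 0.0023). *Dusp1*, *Per1* and *Mt2*, named after their values were seen, were near 0, in a list where 10 genes rose and 7 fell. Log2 fold changes were 0.002 for *Dusp1* (adjusted p = 0.987 in edgeR), 0.08 for *Per1* (adjusted p = 0.706) and 0.07 for *Mt2* (adjusted p = 0.890). *Zbtb16*, at 4.05 CPM in Con and 5.76 CPM in Str, had a log2 fold change of 0.51 (adjusted p = 0.0803), and *Pdk4* of -0.75 (adjusted p = 0.0719). Without the 4 Con libraries with liver transcripts 9 rose and 4 fell, and with library sizes alone 9 rose and 11 fell.

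Sodium transport, the field in which SGK1 and the mineralocorticoid receptor are best known, was measured in 33 of 35 listed genes, of which 6 rose and 4 fell (30.3% called, beside 16.7% of all genes). *Slc9a3*, which encodes the sodium/hydrogen exchanger NHE3 of surface colonocytes, rose from 183 ± 26.5 to 280 ± 43.6 CPM (log2 fold change 0.62, SE 0.091, adjusted p = 0.00011 in edgeR). *Sgk2*, for a kinase related to SGK1, rose from 69.3 ± 13.5 to 105 ± 25.5 CPM (log2 fold change 0.60, SE 0.13, adjusted p = 0.00296), the opposite direction to *Sgk1*. *St14*, for the protease matriptase, rose from 540.2 ± 40.4 to 705 ± 105 CPM (log2 fold change 0.38, adjusted p = 0.00103), and *Fxyd3*, for a regulator of the sodium pump, fell by 0.23 on the log2 scale with 9 of 10 Str libraries below every Con library (adjusted p = 0.00117). Genes around SGK1 differed in direction. *Nedd4l*, for a ubiquitin ligase that SGK1 phosphorylates, rose by 0.30 (adjusted p = 0.0030 in edgeR), whereas *Ndrg1*, for another SGK1 substrate, and *Cnksr3*, for a scaffold of SGK1, fell by 0.34 and 0.33 (adjusted p = 0.0222 and 0.0119). The channel subunit gene *Scnn1a* had a log2 fold change of 0.16 and did not pass (adjusted p = 0.30). Without the 4 Con libraries 4 rose and 2 fell, and *Ndrg1* and *Cnksr3* did not pass (adjusted p = 0.098 and 0.061 in edgeR). Beside these genes, surface colonocyte markers summed to 15415 to 22441 CPM in Con and 17855 to 23833 CPM in Str, and of 7 such markers 3 rose, *Slc9a3* among them, and 1 fell. Their part in the result was not tested.

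**Figure D3:**
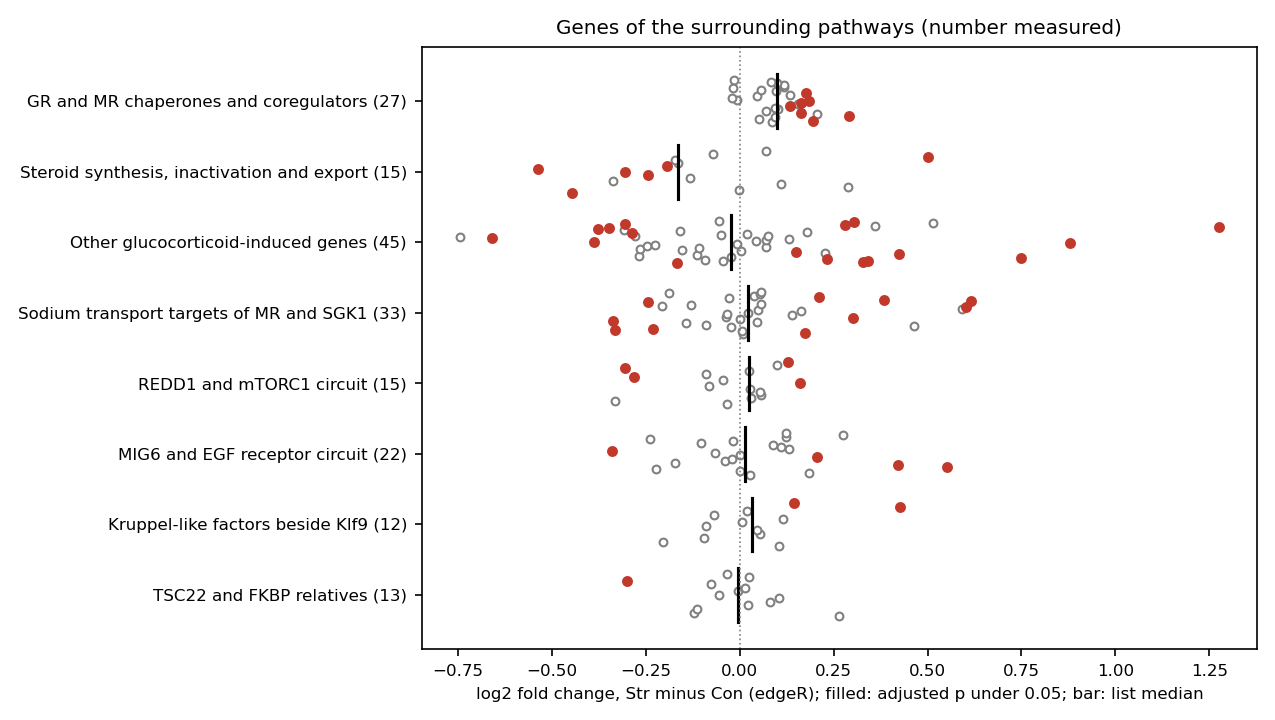
Log2 fold change of Str against Con from edgeR for each measured gene of the 8 surrounding lists (points, filled where the adjusted p is under 0.05), with a bar at the median of each list. The chaperone and coregulator genes lie mostly above 0 and their called genes all do, while called genes of the glucocorticoid-induced and sodium transport lists lie on both sides.

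The partners of *Ddit4*, *Errfi1*, *Klf9* and *Tsc22d3* were read from the same fit. Of 15 genes of the REDD1 and mTORC1 circuit 2 rose and 2 fell (26.7% called, beside 16.7% of all genes). *Rps6kb1*, for the S6 kinase downstream of mTORC1, and *Ywhaz*, for a 14-3-3 protein, rose by 0.16 and 0.13 on the log2 scale (adjusted p = 0.0104 and 0.0428 in edgeR). *Txnip*, for a thioredoxin-binding protein that also binds REDD1, and *Sesn2*, for a stress-induced inhibitor of mTORC1, fell by 0.31 and 0.28 (adjusted p = 0.0254 and 0.0343). In the EGF receptor circuit of 22 genes 3 rose and 1 fell, a share of 18.2% that is near the 16.7% of all genes. *Egfr* rose from 83.2 ± 7.48 to 111 ± 15.4 CPM (log2 fold change 0.42, SE 0.070, adjusted p = 0.00035), and *Dusp6*, for a phosphatase that is induced by the ERK kinases it restrains, from 133 ± 19.9 to 195 ± 52.7 CPM (log2 fold change 0.55, SE 0.13, adjusted p = 0.0053). The adaptor gene *Grb2* rose by 0.20 (adjusted p = 0.0113), and *Socs2*, for a suppressor of cytokine receptors, fell by 0.34 (adjusted p = 0.0158). With the 4 Con libraries left out, *Rps6kb1* of the REDD1 list and *Egfr* of the EGF receptor list rose and none of either list fell. The adjusted p in that edgeR fit was 0.075 for *Txnip*, 0.090 for *Sesn2* and 0.182 for *Ywhaz*. It was 0.053 for *Dusp6*, 0.065 for *Grb2* and 0.085 for *Socs2*.

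Of 12 Krüppel-like and related factors 2 rose and none fell, a share of 16.7%, the same as that of all genes. *Klf7* rose from 19.8 ± 1.76 to 26.6 ± 3.46 CPM (log2 fold change 0.43, SE 0.072, adjusted p = 0.00040 in edgeR) and *Zbtb7a*, a more distant zinc finger gene, by 0.15 (adjusted p = 0.0448, and 0.128 without the 4 Con libraries). *Klf11* and *Klf4* had log2 fold changes of -0.20 and 0.11 and did not pass (adjusted p = 0.106 and 0.214). Of 13 relatives of *Tsc22d3* and of the FKBP immunophilins 1 fell and none rose (7.69% called). It was *Tsc22d1*, for another leucine zipper protein of the TSC22 family, which fell from 447 to 514 CPM in Con to 336 to 479 CPM in Str (log2 fold change -0.30, SE 0.053, adjusted p = 0.00060), with 9 of 10 Str libraries below every Con library, a fall of 18.8% beside the 21.3% of *Tsc22d3*. It also fell without the 4 Con libraries. *Fkbp2*, *Fkbp1a* and *Fkbp9* had log2 fold changes of 0.11, 0.08 and -0.08 (adjusted p = 0.186, 0.244 and 0.279 in edgeR).

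From mouse to mouse within Con, several of the genes varied together. Pearson and Spearman correlations of log2 CPM were computed for the 28 pairs in each group, 56 relations in all, with permutation p-values adjusted over the 56. *Sgk1* is left out in Con because its libraries lay in separate clusters there, each too small for a correlation. *Hsd11b2* and *Tsc22d3* had r = 0.89 over 10 Con libraries (permutation p = 0.00143, adjusted p = 0.0400) and rho = 0.89 (permutation p = 0.00102, adjusted p = 0.0571). *Hsd11b2* and *Ddit4* had r = 0.88 (permutation p = 0.00116, adjusted p = 0.0400) and rho = 0.81 (permutation p = 0.00712, adjusted p = 0.118). *Tsc22d3* and *Ddit4* had r = 0.84 (permutation p = 0.00341, adjusted p = 0.0477) and rho = 0.85 (permutation p = 0.00317, adjusted p = 0.0888). These 3 genes were high or low in the same Con mice, and by rank no pair passed the adjustment. Without the 2 libraries farthest from the median of the first gene, r was 0.95 for *Tsc22d3* against *Hsd11b2*, 0.73 for *Hsd11b2* against *Ddit4* and 0.82 for *Tsc22d3* against *Ddit4*. With the V and L means removed r was 0.84, 0.84 and 0.78, and without the 4 Con libraries with liver transcripts 0.95, 0.97 and 0.91. Each letter holds 5 libraries of a group, too few for a correlation within it.

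In Str the same pairs had r = -0.02 for *Tsc22d3* and *Hsd11b2* (rho = 0.18), -0.18 for *Hsd11b2* and *Ddit4* (rho = -0.35) and 0.26 for *Tsc22d3* and *Ddit4* (rho = 0.33), with adjusted permutation p from 0.717 to 0.954. The highest r in Str was 0.66, between *Nr3c2* and *Sgk1* (rho = 0.72, permutation p = 0.0394 for r and 0.0239 for rho, adjusted p = 0.234 for r), and it was 0.47 with the V and L means removed. *Tsc22d3* and *Sgk1*, the genes that fell, had r = 0.63 in Str (rho = 0.50, permutation p = 0.0515 and 0.141, adjusted p = 0.262 for r), and r was 0.16 without the 2 libraries farthest from the median of *Tsc22d3*. The difference in r between Con and Str was not tested.

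**Figure D4:**
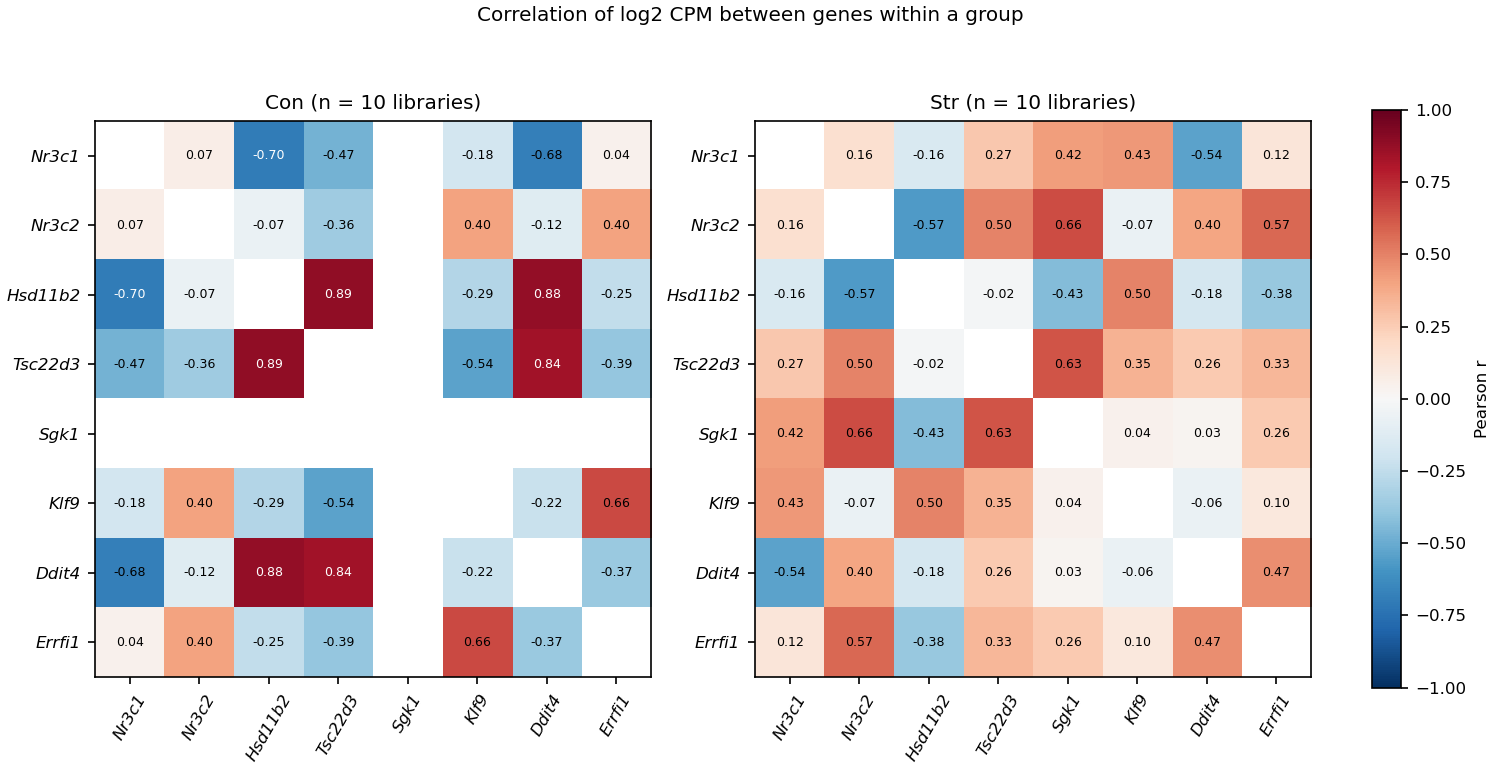
Pearson r of log2 CPM for each pair of genes over the 10 Con libraries (left) and the 10 Str libraries (right), from blue at -1 to red at 1, with *Sgk1* left blank in Con. *Hsd11b2*, *Tsc22d3* and *Ddit4* are at 0.84 to 0.89 with each other in Con and at -0.18 to 0.26 in Str.

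The genes most like each member were read as the highest Pearson r over the 20 libraries after the mean of each group was taken off, among 10457 other genes with a mean of at least 5 CPM. This is a description across libraries that share depth and preparation. *Nr3c1* was most like *Malrd1* (r = 0.92), *Ugt1a1* (r = 0.91) and *Pcnx* (r = 0.91), and *Nr3c2* most like *Prkce*, *Gtpbp2* and *Mau2* (r = 0.91 each to 2 decimals). *Klf9* was most like the kinase gene *Pim1* (r = 0.91), then *Map7* (r = 0.90) and *Rin2* (r = 0.89). *Sgk1* was most like *Pik3r3*, for a regulatory subunit of phosphoinositide 3-kinase (r = 0.90), then *Cpm* (r = 0.90) and *5730419F03Rik* (r = 0.88). The V and L means were not taken off for any gene, and the separate Con clusters of *Sgk1* enter its r. *Tsc22d3* had no gene as close, with *Dclre1c* (r = 0.76), *Zhx3* (r = 0.75) and *Fxyd3* (r = 0.72) at the top. *Hsd11b2* was most like *Gpr89* (r = 0.83), *Mapkapk3* (r = 0.81) and *Gm15401* (r = 0.80), *Ddit4* most like *Dok4*, *Akirin1* and *Dhcr7* (r = 0.79, 0.79 and 0.78) and *Errfi1* most like *LOC105245952*, *Grpel2* and *Clk3* (r = 0.88, 0.86 and 0.86). None of the genes of the set was among these 24, and *Errfi1*, whose mean was under 5 CPM, could not have been.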

How the data were processed

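Colonic IECs of 10 Con and 10 Str mice were sequenced, 1 library per mouse. The authors isolated CD45- EpCAM+ cells with magnetic beads, depleted ribosomal RNA, made directional libraries with the ScriptSeq v2 kit, aligned them to GRCm38.p4 with STAR and used HTSeq for counting. Whole-number counts, unscaled, were taken as the authors deposited them. The table's 20 further value columns, which hold scaled values, stayed unused. The initial of each column name (C or S) gave its group, and names could not be matched to the mouse numbers of the labels. Residents shared cages by 3, and p-values treat mice as independent because no library is tied to a cage.

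The comparison of Str and Con used edgeR 4.0.16 under R 4.3.3, its quasi-likelihood test, TMM factors, no covariate, a mean count minimum of 4, which removed 0 genes, and Benjamini-Hochberg adjustment over 15876 genes. CPM used the TMM-scaled library size, log2 CPM a prior count of 2, and calls an adjusted p under 0.05. The SE is the absolute log2 fold change over the square root of the F statistic, and intervals are at 95%. Correlations were tested by 100000 permutations, two-sided, under Python 3.11.15 with scipy 1.17.1, numpy 2.4.6 and a seed of 7. Depth per library is given with the results; low counts, as for Errfi1, are the least precise. Promoter sequences are those of RefSeq (GRCm38.p6). The fit and the permutation test were tested on simulated data.

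The members, the lists and the tests were chosen with earlier results of these data known. By rule, named genes are the members, the 4 smallest p of each list and the 3 genes most like each member. Further list genes and single marker genes were named after their values were seen. Alternatives were DESeq2 1.42.0, limma-voom (limma 3.58.1), RLE factors, library sizes only, no count filter, the filter of edgeR, the letter as a covariate, V or L libraries alone, a replicate block by column names, each library left out in turn, and the fit without the 4 Con libraries with liver transcripts. Counts of list genes under these alternatives, correlations with letter means removed and correlations with stress-responsive genes were added after seeing the data.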

Additional observations from a re-analysis of the deposited data

Results flagged for a closer look

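Over the 8 genes and the genes named from the lists, 80 groups of 10 libraries were searched for a library far from the rest, by the ratio of its gap to the whole range, and chance marks about 1 in 20 groups. Marked were 5 of the 80. *Errfi1* was at 4.20 CPM in the Str library SV2, with the next at 2.82 CPM. *Ampd3* was at 33.8 CPM in the Con library CV3, below the next at 40.0 CPM. *Sesn2* stood out at the top of both groups, at 13.6 CPM in the Con library CL6 (next 10.8 CPM) and at 12.3 CPM in the Str library SL4 (next 9.48 CPM). *Fkbp2* was at 43.2 CPM in the Str library SV6, with the next at 37.8 CPM.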

How the results depend on the processing

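The direction of *Tsc22d3* and *Sgk1* was downward in each of the 11 alternatives and the 20 fits without 1 library. *Tsc22d3* passed in 9 of the 11 and in all 20, and *Sgk1* in 8 of the 11 and 8 of the 20. The fit with no count filter, counted among the 11, repeats the reported fit, since that filter removed 0 genes. Of the 8 genes, 1 was higher in limma-voom (*Errfi1*) and 1 with a replicate block by column names (*Ddit4*, adjusted p = 0.0399), beside 0 in the comparison as reported, and 0 to 1 without 1 library. The number lower was 1 with RLE factors, without the 4 Con libraries with liver transcripts and in V alone, 0 in L alone, and 1 to 2 without 1 library, beside 2. Over all genes, 1949 were lower with library sizes only (1226 as reported). Without the 4 Con libraries 854 were higher and 608 lower, in V alone 807 and 817, and in L alone 9 and 2. Fewer libraries enter these last fits. The cause of the other shifts was not tested. With the replicate block 1505 genes were higher and 1408 lower. Over 8 column names shared by Con and Str, deviations of same-named libraries had r from -0.03 to 0.50, over 0.1 for 5 of them, and 2 correlated best with their own name, so the names were not taken as pairs. Depth limits *Errfi1* most, at 30 to 95 counts per library. Of the 24 genes named as most like a member, 20 were the same with a minimum of 1 CPM.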

Other observations

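Within Str, the 8 genes were also set against *Duox2*, *Nos2*, *Saa1* and *Reg3b*, 4 genes that the study followed in stressed IECs, a choice made after seeing the data, with 32 relations in all. *Sgk1* and *Reg3b*, which encodes an antimicrobial lectin, had r = -0.85 over the 10 Str libraries (permutation p = 0.00093, adjusted p = 0.0298) and rho = -0.87 (permutation p = 0.00234, adjusted p = 0.0749). Without the 2 libraries farthest from the median of *Reg3b* r was -0.73, and with the V and L means removed it was -0.84. Str mice with more *Reg3b* mRNA had less *Sgk1* mRNA by r, and the rank correlation did not pass after adjustment. The next relations did not pass, with r = -0.79 for *Nr3c1* and *Saa1* (rho = -0.67, permutation p = 0.00689 and 0.0396, adjusted p = 0.110 for r) and r = -0.71 for *Tsc22d3* and *Reg3b* (rho = -0.73, permutation p = 0.0278 and 0.0201, adjusted p = 0.265 for r).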
